A study of Bos taurus with 33 samples.

Results

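Oocyte pools from small follicles that were induced to a gonadotropin surge were compared with oocyte pools from follicles of cows that came into estrus spontaneously. The comparison used 10 of the 33 libraries of the study, which were the 6 small and the 4 spontaneous oocyte pools, taken by their labels. Each library held the RNA of 4 oocytes. The other libraries were 6 oocyte pools from large follicles, given below only as levels, and the pools of cumulus cells (CC), the somatic cells around the oocyte. All donors were suckled postpartum beef cows (Hereford-Angus crossbred) that received GnRH on day -9 and prostaglandin F2α (PGF) on day -2. Cows of the small classification had a largest follicle of up to 11.7 mm, had not shown estrus and received a second GnRH injection (GnRH2) on day 0. Cows of the spontaneous classification had a follicle of 11.7 to 14.0 mm, showed estrus and received no GnRH2. Large follicles measured at least 12.7 mm and were treated as the small ones. Follicle diameter, estrous expression and GnRH2 therefore changed together between small and spontaneous follicles, and their parts cannot be told apart. Oocytes were aspirated about 23 h after GnRH2 or estrus according to the protocol, whereas the sample characteristics give about 20 h. Each pool mixed oocytes of several cows, so no value belongs to a single oocyte. In such pools, fewer cells of a type and less RNA per cell cannot be told apart.

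The fully grown oocyte is almost silent in transcription and lives on stored messenger RNA until the embryonic genome is activated. Its ATP comes mainly from oxidative phosphorylation of pyruvate supplied by the CC. The respiratory chain and ATP synthase are assembled from a few subunits encoded in the mitochondrial DNA and many subunits encoded in the nucleus, translated on mitochondrial and cytosolic ribosomes respectively. In oocytes the vacuolar ATPase (V-ATPase), listed with these complexes in pathway collections, pumps protons into lysosomes and other acidic organelles.

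The labels were checked against marker transcripts. All 16 oocyte markers, among them GDF9, BMP15 and the zona pellucida genes, were retained and their summed level was 16928 to 22691 counts per 1000000 reads on genes (CPM) in small pools and 18626 to 20875 CPM in spontaneous pools. Of 29 CC and granulosa markers 17 were retained. The sum of all 29 was 1107 to 4649.6 CPM in small and 1202 to 3269 CPM in spontaneous pools. Much of this sum was VCAN alone (323 to 3427 CPM in small and 272 to 2077 CPM in spontaneous pools). In the CC pools, which were scaled separately, these markers summed to 14168 to 36308 CPM. The gonadotropin receptor LHCGR had no read in any of the 10 pools and FSHR had reads in 2 of them. From a list of 22 white blood cell markers, 6 were retained (CSF1R, LCP1, CD52, CD3E, CD3G and FCER1G). The sum of all 22 was 187 to 298 CPM in small and 187 to 265 CPM in spontaneous pools. Most of it was CSF1R (146 to 254 and 159 to 211 CPM), while CD4, ITGAM, CORO1A, CD79B and NKG7 had no read in these pools. From 5 red blood cell markers, 2 were retained, HEMGN (9.81 ± 9.31 and 29.2 ± 24.7 CPM (SD) in small and spontaneous pools) and EPB42 (28.4 ± 21.3 and 22.3 ± 20.4 CPM), and HBB had no read. Neither list had a called member. The 9 theca markers summed to 17.8 to 158 CPM in small and 14.8 to 161 CPM in spontaneous pools. For the 8 endothelium markers the sums were 194 to 240 CPM and 176 to 278 CPM, and no member of these lists was called either. A count of 0 allowed up to 0.167 to 0.391 CPM, which is 3 reads, and covers counting error only. Small pools held 7664375 to 13525662 reads on genes and spontaneous pools 13182627 to 17934916, so spontaneous pools were deeper, and a thinned comparison is given below. Small replicate 3 stood apart in mitochondrial transcripts, and fold changes of the transcripts named with a test are given with and without it.

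Of 16279 genes in the oocyte table, 10076 reached 5 CPM in at least 4 of the 16 oocyte pools and were tested with limma on log2(CPM + 1). A transcript was called when its nominal p was 0.01 or less with all pools and again without small replicate 3. The 78 called transcripts (0.774% of those tested) comprised 53 that were higher in spontaneous pools (0.526%) and 25 that were higher in small pools (0.248%). With all pools 95 transcripts (0.943%) reached the nominal threshold, and 100.76 would reach it at that rate if none differed. After Benjamini-Hochberg adjustment over all 10076 transcripts, limma called none at 0.05, the smallest adjusted p was 0.14, and 454 transcripts (4.51%) had an unadjusted p under 0.05. edgeR's quasi-likelihood test on the recovered reads called 56 and DESeq2 122 at the nominal threshold, of which 29 and 51 were higher in spontaneous pools. With limma under TMM or median-of-ratios scaling, 43 of 73 called transcripts were higher in spontaneous pools. The split by direction therefore varied with scaling as well as with the tool. With the reads of each pool thinned to 7664375, 77 transcripts were called, 53 of them higher in spontaneous pools. Without small replicate 3 alone limma reached 133 transcripts (1.32%), and without spontaneous replicate 3 the rule called 49. The adjusted p of the named transcripts below ran from 0.14 to 0.987, so none passed adjustment in this fit. COX1 had an adjusted limma p of 0.046 under TMM scaling, the only transcript under 0.05 there.

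**Figure D1:**
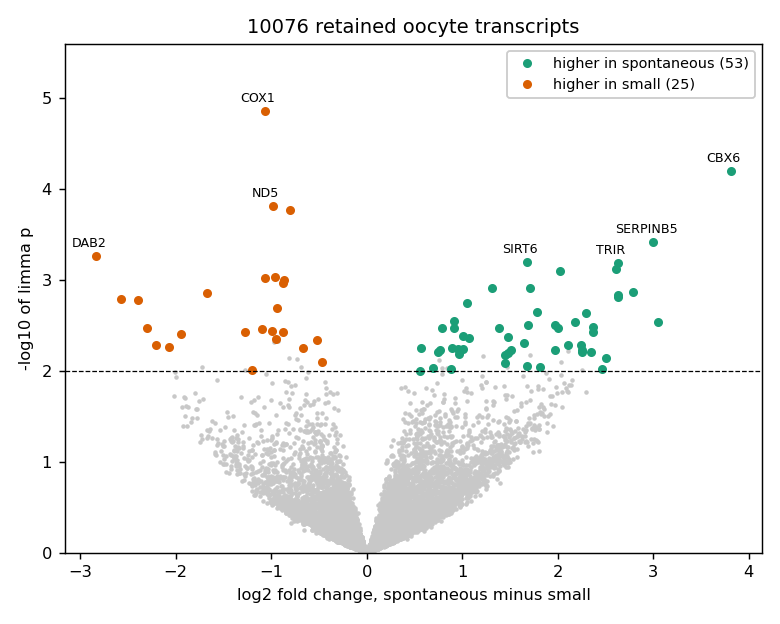
Each point is 1 of 10076 retained oocyte transcripts, with the log2 fold change of log2(CPM + 1), spontaneous minus small, on the horizontal axis and -log10 of the limma p on the vertical axis; the dashed line marks a p of 0.01. Coloured points are the 78 called transcripts, 53 to the right (higher in spontaneous) and 25 to the left (higher in small), and COX1 lies highest.

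Transcripts of the mitochondrial genome held more called members than any other of the 22 gene lists examined. All 13 protein-coding genes were retained, and all 13 had lower mean levels in spontaneous pools, with a median log2 fold change of -0.94 (-0.63 without small replicate 3) against 0.05 over all retained transcripts. Of these, 9 were called (COX1, ND1, ND5, cytb, ND4, COX3, ATP6, ND6 and ND2), and 4 (MT-ND3, MT-ND4L, MT-CO2 and ATP8) were not, of which the first 3 reached the threshold with all pools but not without small replicate 3. Over all retained transcripts 0.774% were called. The share of reads on the 13 genes was 1.39%, 1.76%, 5.0%, 1.73%, 1.88% and 1.27% in small replicates 1 to 6. It was 0.944%, 1.08%, 0.846% and 1.18% in spontaneous replicates 1 to 4. The groups did not overlap, the lowest small pool standing just above the highest spontaneous pool, and small replicate 3 was the highest of all.
The difference in mean share was -1.16 percentage points with all pools (two-sided exact permutation p = 0.0619 over 210 assignments) and -0.59 points without small replicate 3 (exact permutation p = 0.0159 over 126 assignments). That pool was left out for its outlying mitochondrial share, the quantity tested here. The p without it therefore cannot serve as support for a difference. On the log2 scale, a test added after the data were seen, the difference was -0.94 (exact permutation p = 0.00952). The 6 large pools had shares of 1.36%, 1.68%, 1.18%, 1.2%, 1.13% and 2.68%, a range that overlapped both other groups. Summed CC markers were also highest in small replicate 3 (4649.6 CPM) and in large replicate 6 (4485 CPM), the pools with the highest mitochondrial shares, whereas spontaneous replicate 3 had the highest marker sum of its group (3269 CPM) and the lowest share. In the CC pools the mean level of COX1 was 79219.6 CPM for small and 51919 CPM for spontaneous follicles. The part of CC RNA in the oocyte difference was not tested.

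**Figure D2:**
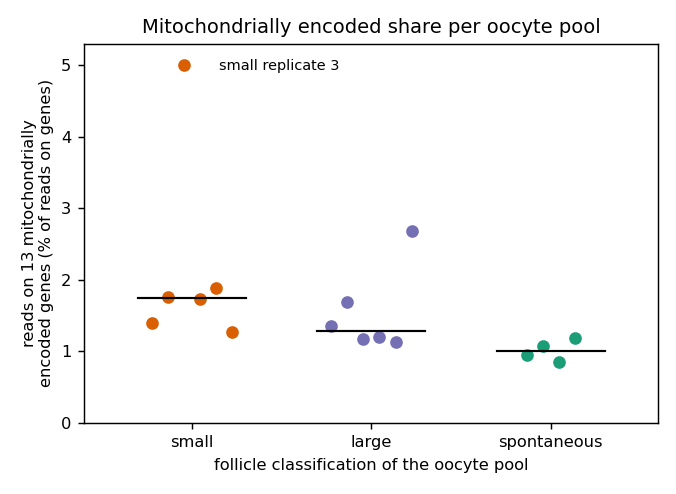
Share of reads on the 13 mitochondrially encoded genes, in percent of reads on genes, in each oocyte pool; points are pools and lines are group medians. The 4 spontaneous pools lie between 0.846% and 1.18%, below all 6 small pools, and small replicate 3 reaches 5.0%.

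COX1, here the mitochondrial gene of the catalytic subunit of complex IV, had the smallest p of all retained transcripts. Its levels were 2320.0 (lowest), 3239.9 (median) and 8039.8 CPM (highest) in small pools, and 1461, 1835, 1530.1 and 1816 CPM in spontaneous pools 1 to 4. All spontaneous pools lay below all small pools (log2 fold change of -0.83 without small replicate 3 and -1.07 ± 0.20 (SE) with all pools, limma p = 1.39e-05, exact permutation p = 0.0286, adjusted p = 0.14). Without small replicate 3 its limma adjusted p was 0.00329, the only one under 0.05 in that fit. Since that pool was left out for its mitochondrial share, this value is not independent of the choice. ND1, a core subunit of complex I, was at 2523 (lowest), 2904 (median) and 7228 CPM (highest) in small pools, and at 1696, 2129, 1675 and 2034 CPM in spontaneous pools 1 to 4. It did not overlap between the groups either (log2 fold change of -0.58 without small replicate 3 and -0.81 ± 0.19 (SE) with all pools, limma p = 0.00017, exact permutation p = 0.0381). ND5, another core subunit of complex I, was at 1434 (lowest), 2338 (median) and 5595 CPM (highest) in small pools, and at 1215, 1409, 839 and 1818 CPM in spontaneous pools 1 to 4. Here the lowest small pool lay within the spontaneous range (log2 fold change of -0.75 without small replicate 3 and -0.98 ± 0.23 (SE) with all pools, limma p = 0.000152, exact permutation p = 0.0429). ATP6, a subunit of the ATP synthase proton channel, was at 699.9 (lowest), 967 (median) and 3055 CPM (highest) in small pools and at 563, 592, 639 and 626 CPM in spontaneous pools 1 to 4. Its groups were separate (log2 fold change of -0.59 without small replicate 3 and -0.88 ± 0.24 (SE) with all pools, limma p = 0.00107, exact permutation p = 0.0905). For the other called members of this group the log2 fold changes ran from -1.07 (cytb, of complex III) to -0.87 (COX3, of complex IV), and their groups overlapped by at least 1 pool. Without small replicate 3 the log2 fold changes of these 5 were smaller in size, at -0.72 for cytb, -0.75 for ND6, -0.64 for ND4, -0.57 for ND2 and -0.56 for COX3. In spontaneous pools ND6 lay between 73.7 and 139 CPM and ND2 between 256 and 396 CPM, while small pools reached 394 and 1713 CPM. ND6 lost its call without spontaneous replicate 3 (log2 fold change -0.76), and ND2 without spontaneous replicate 1 (-0.78) or 4 (-0.81). Without the filter on low levels, 8 of these 9 genes, all except COX1, lost the call, and DESeq2 did not call COX3 or ND2. The genes ATP8 and ATP6, and ND4L and ND4, overlap in the mitochondrial genome, and copies of mitochondrial sequence lie in the nuclear genome, so that reads may be shared among them.

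Most nuclear-encoded subunits had higher means in spontaneous pools, few passed the test, and their sums overlapped between the groups. Of 110 genes of complexes I to IV, cytochrome c, ATP synthase and V-ATPase in the table, 98 were retained, and 80 of these had higher means in spontaneous pools (81.6%, against 55% of all retained transcripts). The other 18 had higher means in small pools, among them ATP5B (log2 fold change -0.52) of ATP synthase. The median log2 fold change was 0.43 (0.545 without small replicate 3). Of the 98, 5 were called (ATP6V0D1, COX6A1, NDUFA7, COX5B and NDUFA13), all higher in spontaneous pools, against 0.774% of all retained transcripts. A nominal p under 0.05 was reached by 15, against 4.51% of all retained transcripts. The summed level of all 110 genes was 4247 to 6596 CPM in small and 5183 to 8054 CPM in spontaneous pools. The groups overlapped, small replicates 2 and 3 standing with the spontaneous pools. Complex IV had 13 retained nuclear members, and 13 of 13 were higher in spontaneous pools (median 0.60). Complex I had 27 of 34 (median 0.44), complexes II and III with cytochrome c 12 of 14 (median 0.49), ATP synthase 14 of 18 (median 0.44) and V-ATPase 14 of 19 (median 0.18). Leaving out any 1 pool, the median of the whole list stayed between 0.32 and 0.57, the lowest without spontaneous replicate 3. The CC and granulosa markers, none of them called, had a median log2 fold change of the same sign, 0.46 (0.86 without small replicate 3 and 0.03 without spontaneous replicate 3), and both sums were highest in replicate 3 of each group. COX6A1 and COX5B, called above, averaged 223 and 227 CPM in small CC pools and 246 and 236 CPM in spontaneous CC pools, more than in oocyte pools. ATP6V0D1 (50.3 and 53.4 CPM in small and spontaneous CC pools) and NDUFA7 (60.3 and 66.3 CPM) also exceeded their oocyte means. NDUFA13 averaged 51.9 CPM in small CC pools and 44.3 CPM in spontaneous CC pools. Its oocyte means were 28.9 CPM in small and 63.5 CPM in spontaneous pools. The part of CC RNA in these differences was not tested. The study names genes of this pathway from the same libraries, so the direction of those members is not independent evidence.

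ATP6V0D1, subunit d of the membrane sector of the V-ATPase, was at 3.89 (lowest), 9.64 (median) and 19.5 CPM (highest) in small pools, and at 32.9, 52.6, 33.3 and 47.8 CPM in spontaneous pools 1 to 4. The groups were separate (log2 fold change of 2.17 without small replicate 3 and 2.02 ± 0.54 (SE) with all pools, limma p = 0.000796, exact permutation p = 0.00476, the smallest p that 210 assignments allow), and the call held in all 21 alternatives. COX6A1, a nuclear subunit of complex IV, was at 9.24 (lowest), 16.5 (median) and 71.1 CPM (highest) in small pools, and at 60.4, 42.5, 122 and 64.5 CPM in spontaneous pools 1 to 4. The highest small pool, replicate 3, lay within the spontaneous range (log2 fold change of 2.06 without small replicate 3 and 1.71 ± 0.47 (SE) with all pools, limma p = 0.00122, exact permutation p = 0.0238). Without spontaneous replicate 3 the log2 fold change was 1.42 and the call was lost. COX5B, also of complex IV, was at 15.9 (lowest), 28.2 (median) and 98.5 CPM (highest) in small pools, and at 61.6, 44.3, 118 and 182 CPM in spontaneous pools 1 to 4. Here too small replicate 3 was high (log2 fold change of 1.69 without small replicate 3 and 1.38 ± 0.43 (SE) with all pools, limma p = 0.0034, exact permutation p = 0.0429), and the call was lost without spontaneous replicate 3 (log2 fold change 1.24) or 4 (1.03), and without the filter on low levels. NDUFA7, an accessory subunit of complex I, was at 0.813 (lowest), 9.52 (median) and 23.1 CPM (highest) in small pools, and at 30.9, 19.9, 62.8 and 37.6 CPM in spontaneous pools 1 to 4. It overlapped between groups in 1 small pool (log2 fold change of 2.50 without small replicate 3 and 2.18 ± 0.67 (SE) with all pools, limma p = 0.00288, exact permutation p = 0.00952), and its call was lost without spontaneous replicate 3 (log2 fold change 1.90). NDUFA13, an accessory subunit of complex I, averaged 28.9 ± 23.4 CPM (SD) in small and 63.5 ± 22.5 CPM in spontaneous pools (log2 fold change of 1.72 without small replicate 3 and 1.45 ± 0.51 (SE) with all pools, limma p = 0.00806, exact permutation p = 0.0524). It lost the call without any 1 of small replicates 1, 5 and 6 and spontaneous replicates 2, 3 and 4, with log2 fold changes of 1.18 to 1.47. The quasi-likelihood test on the recovered reads and the fit without the filter on low levels called neither NDUFA7 nor NDUFA13, and DESeq2 and the fit of all 3 classifications did not call NDUFA13. The study also names NDUFA8, of complex I, for this comparison. Its levels were 3.92 (lowest), 22.5 (median) and 43.9 CPM (highest) in small pools, and 41.4, 10.9, 139 and 87 CPM in spontaneous pools 1 to 4, and it did not reach the nominal threshold with all pools (log2 fold change of 1.87 without small replicate 3 and 1.61 ± 0.67 (SE) with all pools, limma p = 0.0222, exact permutation p = 0.0571) but did without small replicate 3 or spontaneous replicate 2.

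**Figure D3:**
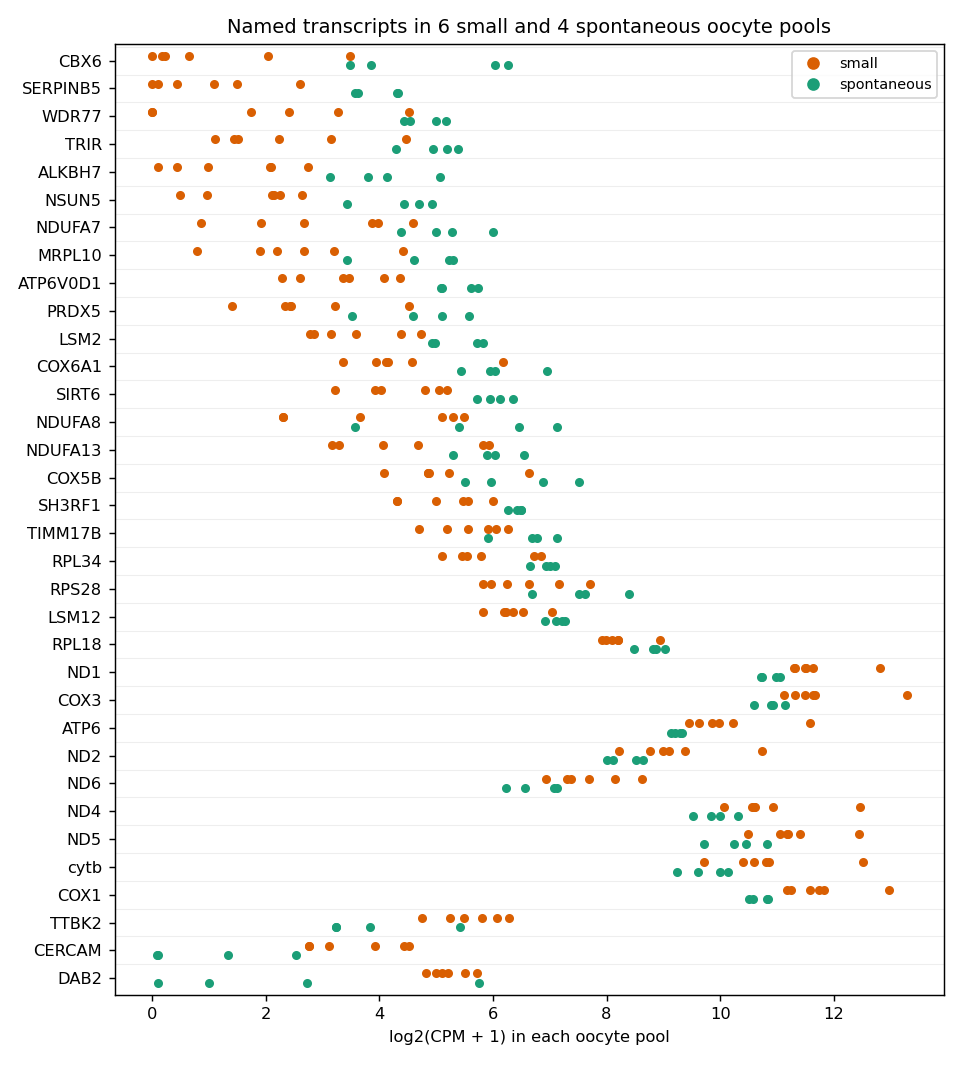
log2(CPM + 1) of 34 named transcripts (rows) in each small and each spontaneous oocyte pool (points), ordered by log2 fold change. In the upper 22 rows the spontaneous pools lie mostly to the right of the small pools, and in the lower 12 rows, the mitochondrially encoded genes, TTBK2, CERCAM and DAB2, mostly to the left.

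The machinery that makes and imports these proteins was less uniform. Over all retained transcripts 0.774% were called and 4.51% had an unadjusted limma p under 0.05. Beside these shares, 1 such member in a list below is no result about the list. Of 72 retained mitochondrial ribosomal protein genes 49 were higher in spontaneous pools, but 1 (MRPL10) was called. Their median log2 fold change was 0.26, also without small replicate 3, and 0.15 without spontaneous replicate 3. The summed level of all 79 such genes, retained or not, was 3274 to 3677 CPM in small and 3795 to 4222 CPM in spontaneous pools. These ranges did not overlap, also not under median-of-ratios scaling, TMM scaling or CPM without mitochondrially encoded genes. MRPL10, a protein of the large subunit, was at 0.73 (lowest), 4.47 (median) and 20.3 CPM (highest) in small pools, and at 23.3, 36.6, 9.79 and 38.1 CPM in spontaneous pools 1 to 4 (log2 fold change of 2.14 without small replicate 3 and 2.11 ± 0.70 (SE) with all pools, limma p = 0.00515, exact permutation p = 0.00952). Its call was lost without any 1 of small replicate 1 and spontaneous replicates 1, 2 and 4 (log2 fold changes 1.76 to 2.12), without the filter on low levels and with the quasi-likelihood test. Of 36 retained assembly factors 25 were higher in spontaneous pools (median 0.18) and none was called, with 1 at an unadjusted limma p under 0.05. Of 31 import genes 18 were higher (median 0.05), and 1 was called, TIMM17B, of the inner membrane translocase (log2 fold change of 1.14 without small replicate 3 and 1.01 ± 0.34 (SE) with all pools, limma p = 0.00568, exact permutation p = 0.019). TIMM17B lost its call without any 1 of small replicates 2 and 6 and spontaneous replicates 1, 3 and 4 (log2 fold changes 0.83 to 0.99), and without the filter on low levels. Pyruvate dehydrogenase and tricarboxylic acid (TCA) cycle enzymes were split, with 13 of 27 higher in spontaneous pools (median -0.05), and none was called. An unadjusted p under 0.05 was reached by 2 of them. One was MDH2, the mitochondrial malate dehydrogenase, which averaged 45.2 ± 9.82 CPM (SD) in small and 77.9 ± 23.1 CPM in spontaneous pools (log2 fold change 0.76). Glycolytic enzymes had 12 of 17 retained members higher in spontaneous pools (median 0.19) with none called and 1, PFKL, at an unadjusted p under 0.05.

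**Figure D4:**
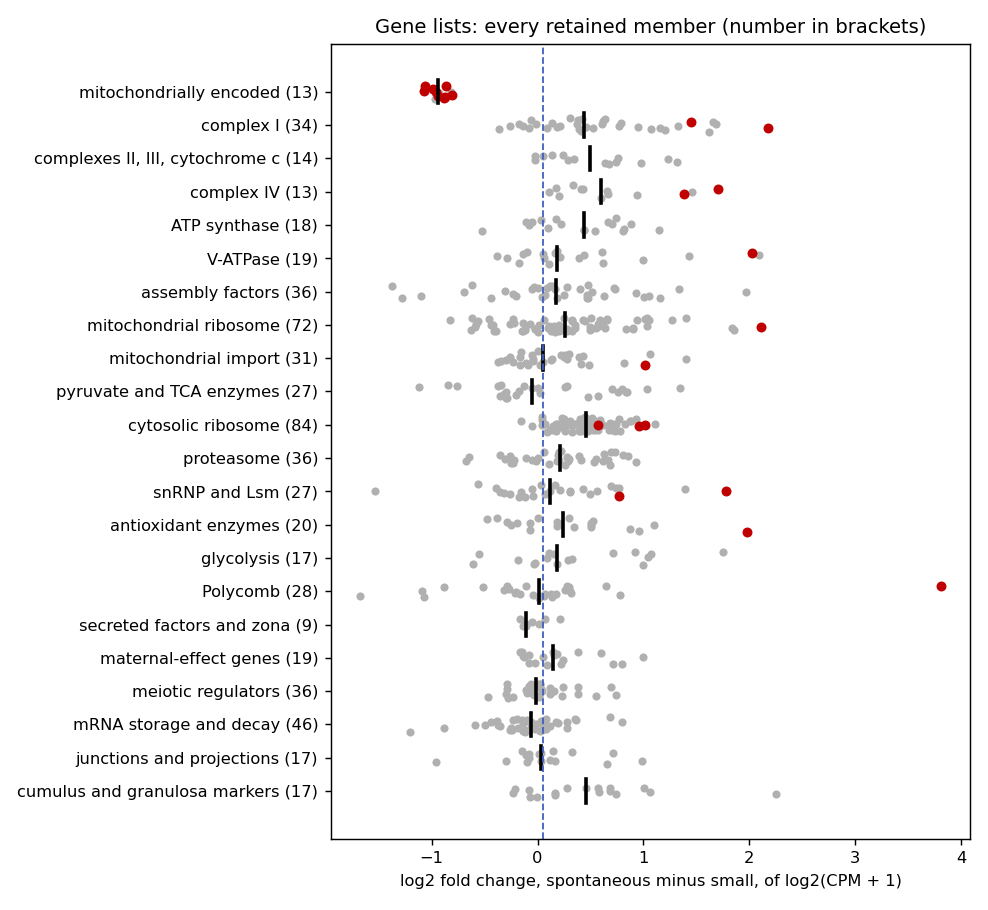
log2 fold change of log2(CPM + 1), spontaneous minus small, of every retained member of 22 gene lists; black bars are list medians, red points are called members and the dashed line is the median of all 10076 retained transcripts (0.05). The mitochondrially encoded genes lie together near -0.94, whereas complexes I to IV and ATP synthase and the cytosolic ribosome have medians between 0.44 and 0.60.

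Cytosolic ribosomal protein genes, which build the ribosomes of stored-message translation, had a median log2 fold change of 0.45. It was 0.657 without small replicate 3 and 0.27 without spontaneous replicate 3. Of 84 retained members 82 were higher in spontaneous pools, and 79 to 82 under the other scalings. Of these, 3 were called, RPL34 (log2 fold change of 1.2 without small replicate 3 and 1.01 ± 0.32 (SE) with all pools, limma p = 0.00411, exact permutation p = 0.019), RPS28 (log2 fold change of 1.19 without small replicate 3 and 0.96 ± 0.33 (SE) with all pools, limma p = 0.00644, exact permutation p = 0.0714) and RPL18 (log2 fold change of 0.71 without small replicate 3 and 0.57 ± 0.19 (SE) with all pools, limma p = 0.00551, exact permutation p = 0.0429). RPL18 was at 242 (lowest), 283 (median) and 491 CPM (highest) in small pools, and at 467, 356, 519.7 and 452 CPM in spontaneous pools 1 to 4, the highest small pool being replicate 3. Each of the 3 lost its call without spontaneous replicate 1, 3 or 4, without at least 1 of the small pools, without the filter on low levels, and with DESeq2 and the quasi-likelihood test, the log2 fold changes in those fits without a pool being 0.85 to 1.01 for RPL34, 0.68 to 0.97 for RPS28 and 0.50 to 0.56 for RPL18. The summed level of all 93 such genes, retained or not, was 7457 to 16099 CPM in small and 9619 to 17845 CPM in spontaneous pools and overlapped. Small replicate 3 was again the highest small pool and spontaneous replicate 3 the highest spontaneous pool, as for the summed CC markers. The mean of RPL18 was 1426 CPM in small and 1586 CPM in spontaneous CC pools, and the part of CC RNA was not tested here either. Ribosomal protein genes have many processed copies in the genome, so that their reads may have been split. Proteasome subunits had 25 of 36 retained members higher (median 0.21) and none called, with 2 at an unadjusted p under 0.05. Of all retained transcripts 4.51% had such a p and 0.774% were called. Among 27 retained snRNP and Lsm genes, which act in splicing and mRNA decay, 16 were higher and 2 were called. LSM2, of the Lsm ring on U6 snRNA, was at 5.84 (lowest), 9.41 (median) and 25.7 CPM (highest) in small pools, and at 29.4, 30.7, 55.5 and 51.4 CPM in spontaneous pools 1 to 4, without overlap (log2 fold change of 2.01 without small replicate 3 and 1.78 ± 0.53 (SE) with all pools, limma p = 0.00226, exact permutation p = 0.00476). Its call was lost without spontaneous replicate 3 (log2 fold change 1.63) or 4 (1.66). LSM12 averaged 84.1 ± 25.3 CPM (SD) in small and 140.0 ± 14.7 CPM in spontaneous pools (log2 fold change of 0.80 without small replicate 3 and 0.77 ± 0.26 (SE) with all pools, limma p = 0.00582, exact permutation p = 0.0143), and its call was lost in 5 of the fits that left out a pool, without small replicate 1 or 6 or spontaneous replicate 1, 2 or 3 (log2 fold changes 0.66 to 0.78). PRDX5, a peroxiredoxin found in mitochondria, was the 1 called of 20 antioxidant genes (log2 fold change of 2.34 without small replicate 3 and 1.97 ± 0.66 (SE) with all pools, limma p = 0.00588, exact permutation p = 0.00952, 13 of 20 higher), and was lost without small replicate 4 or 5 or spontaneous replicate 1, 3 or 4 (log2 fold changes 1.68 to 2.01). The quasi-likelihood test called neither LSM12 nor PRDX5, and PRDX5 also lost its call without the filter on low levels.

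**Figure D5:**
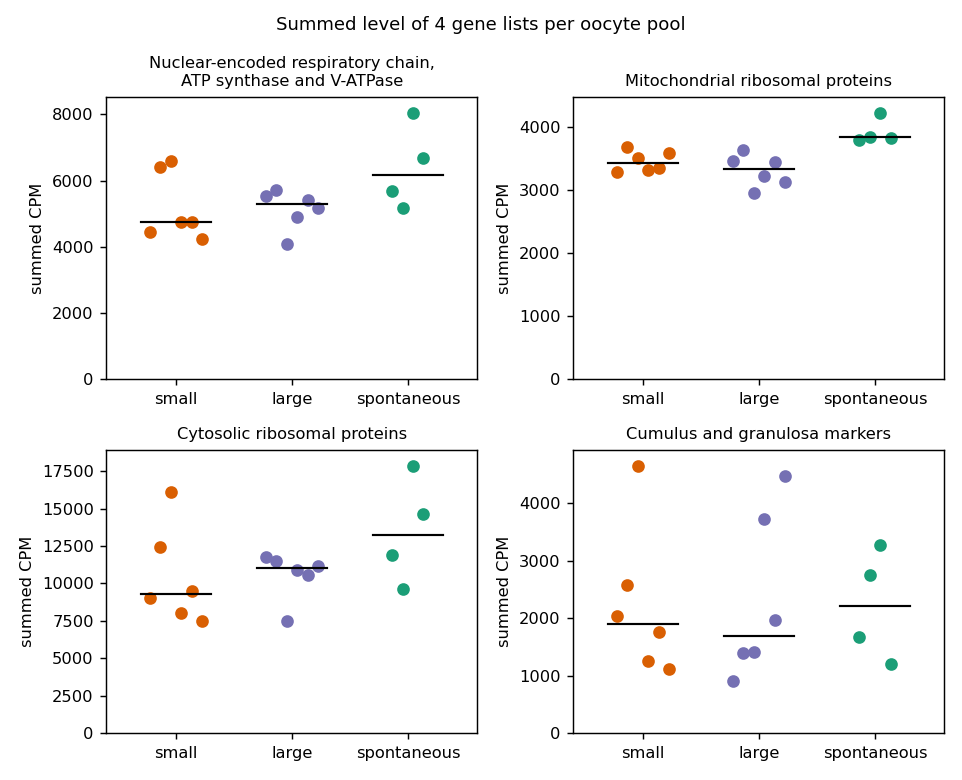
Summed CPM of all measured members of 4 gene lists, retained or not, in each oocyte pool; points are pools and lines are group medians. Sums of mitochondrial ribosomal proteins are separate between small and spontaneous pools, while those of nuclear respiratory chain genes, cytosolic ribosomal proteins and CC and granulosa markers overlap.

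The following transcripts were among the 10 with the smallest p of those called higher in spontaneous pools. CBX6, a chromobox protein of Polycomb repressive complex 1, had the smallest p in this direction. It was at 0 (lowest), 0.367 (median) and 10.2 CPM (highest) in small pools, and at 75.4, 64.8, 10.2 and 13.4 CPM in spontaneous pools 1 to 4. The highest small pool reached the level of the lowest spontaneous pool, and large pools ranged from 0 to 29.6 CPM (log2 fold change of 3.63 without small replicate 3 and 3.81 ± 0.81 (SE) with all pools, limma p = 6.35e-05, exact permutation p = 0.00952). Of 28 retained Polycomb genes no other was called, 15 were higher in spontaneous pools and the median was 0.02. SIRT6, a chromatin deacetylase of DNA repair, was at 8.27 (lowest), 21.1 (median) and 35.7 CPM (highest) in small pools, and at 69, 61.1, 80.8 and 52 CPM in spontaneous pools 1 to 4. All spontaneous pools were above all small pools (log2 fold change of 1.59 without small replicate 3 and 1.68 ± 0.44 (SE) with all pools, limma p = 0.000625, exact permutation p = 0.00476), and the large pools had a median of 39.6 CPM. WDR77, the partner of the arginine methyltransferase PRMT5, was at 0 (lowest), 3.33 (median) and 21.9 CPM (highest) in small pools, and at 22.3, 34.9, 20.5 and 30.8 CPM in spontaneous pools 1 to 4. It overlapped in small replicate 3 (log2 fold change of 3.30 without small replicate 3 and 2.79 ± 0.79 (SE) with all pools, limma p = 0.00136, exact permutation p = 0.0143) and was not called by DESeq2, the quasi-likelihood test or the fit without the filter on low levels.

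NSUN5, a methyltransferase of ribosomal RNA, was at 0.409 (lowest), 3.37 (median) and 5.22 CPM (highest) in small pools, and at 9.83, 25.1, 29.5 and 20.7 CPM in spontaneous pools 1 to 4. Its groups were separate (log2 fold change of 2.79 without small replicate 3 and 2.61 ± 0.69 (SE) with all pools, limma p = 0.000755, exact permutation p = 0.00476). TRIR, a ribonuclease that binds the telomerase RNA component, was at 1.14 (lowest), 2.78 (median) and 21.3 CPM (highest) in small pools, and at 40.7, 29.7, 18.7 and 35.5 CPM in spontaneous pools 1 to 4. One small pool, replicate 5, reached into the spontaneous range (log2 fold change of 2.80 without small replicate 3 and 2.63 ± 0.69 (SE) with all pools, limma p = 0.000645, exact permutation p = 0.00952). SERPINB5, of the serpin family, was at 0 (lowest), 0.74 (median) and 5.09 CPM (highest) in small pools, and at 10.8, 18.8, 11.4 and 19 CPM in spontaneous pools 1 to 4. Every spontaneous pool exceeded every small pool (log2 fold change of 3.33 without small replicate 3 and 3.0 ± 0.75 (SE) with all pools, limma p = 0.000382, exact permutation p = 0.00476), and the large pools ranged from 0.0923 to 17.9 CPM. SH3RF1, a scaffold and ubiquitin ligase of the JNK pathway, was at 18.7 (lowest), 37.2 (median) and 62.8 CPM (highest) in small pools, and at 85.3, 76.3, 89 and 89.1 CPM in spontaneous pools 1 to 4, also without overlap (log2 fold change of 1.29 without small replicate 3 and 1.31 ± 0.37 (SE) with all pools, limma p = 0.00123, exact permutation p = 0.00476). ALKBH7, a mitochondrial dioxygenase of the AlkB family, was at 0.0739 (lowest), 2.08 (median) and 5.72 CPM (highest) in small pools, and at 16.5, 32.5, 12.9 and 7.81 CPM in spontaneous pools 1 to 4. Its groups did not overlap (log2 fold change of 2.77 without small replicate 3 and 2.63 ± 0.75 (SE) with all pools, limma p = 0.00146, exact permutation p = 0.00476), and the call was lost without spontaneous replicate 2 (log2 fold change 2.28). CBX6 and ALKBH7 were among the 5 of 53 called transcripts that passed the filter on low levels only with the spontaneous pools, in which they were high.

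Of the 25 transcripts higher in small pools, 9 were mitochondrially encoded. DAB2, a clathrin adaptor of endocytosis, was at 27.4 (lowest), 34.7 (median) and 51.8 CPM (highest) in small pools, and at 5.64, 52.8, 0.0759 and 1 CPM in spontaneous pools 1 to 4. The small pools were alike, whereas spontaneous replicate 2 stood at their level and the other 3 spontaneous pools below (log2 fold change of -2.88 without small replicate 3 and -2.83 ± 0.73 (SE) with all pools, limma p = 0.000542, exact permutation p = 0.0762). Without spontaneous replicate 2 the log2 fold change was -3.95 and limma's Benjamini-Hochberg adjusted p was 0.0149. The quasi-likelihood test did not call DAB2 with all pools, its log2 fold change being -1.33, and the call was also lost without the filter on low levels. TTBK2, a kinase that starts the growth of cilia, was at 25.8 (lowest), 49.5 (median) and 76.8 CPM (highest) in small pools, and at 8.43, 8.43, 13.4 and 41.8 CPM in spontaneous pools 1 to 4. One spontaneous pool, replicate 4, lay within the small range (log2 fold change of -1.69 without small replicate 3 and -1.67 ± 0.47 (SE) with all pools, limma p = 0.00139, exact permutation p = 0.0286). CERCAM, a protein of the glycosyltransferase family 25, was at 5.76 (lowest), 10.9 (median) and 22 CPM (highest) in small pools, and at 4.78, 0.0675, 1.52 and 0.0558 CPM in spontaneous pools 1 to 4, without overlap (log2 fold change of -2.67 without small replicate 3 and -2.58 ± 0.74 (SE) with all pools, limma p = 0.00159, exact permutation p = 0.0238). The quasi-likelihood test did not call it. CERCAM was also among the 4 of 25 that passed the filter only with the small pools. Over all retained transcripts the groups did not overlap for 91, which is 0.903% (48, or 0.476%, higher in spontaneous and 43, or 0.427%, higher in small pools), and among the 78 called transcripts this held for 23, 13 of them higher in spontaneous pools.

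Lists of stored oocyte transcripts had medians near that of all retained transcripts. Secreted factors and zona genes had 3 of 9 retained members higher in spontaneous pools (median -0.10), meiotic regulators 17 of 36 (median -0.02), mRNA storage and decay genes 18 of 46 (median -0.06), and genes of junctions and transzonal projections 10 of 17 (median 0.03). None of them was called by limma, and 0, 1, 1 and 0 members had an unadjusted p under 0.05, against 4.51% of all retained transcripts. GDF9 and BMP15, the growth factors by which the oocyte acts on its CC, averaged 903 ± 127 and 1712 ± 269.8 CPM (SD) in small pools. In spontaneous pools they averaged 818 ± 217 and 1559.8 ± 102 CPM, within the spread of the small pools. Maternal-effect genes had 12 of 19 retained members higher in spontaneous pools (median 0.14), with none called and 4 at an unadjusted p under 0.05. These were ZAR1 (65.6 ± 18.3 and 112 ± 23.6 CPM in small and spontaneous pools), a regulator of stored mRNA, FIGLA, OOEP and DNMT3A. Each of the 4 was higher on average in spontaneous pools. The CC and granulosa list had 12 of 17 retained members higher in spontaneous pools (median 0.46) and none called. TNC, an extracellular matrix protein of this list, reached the threshold with all pools but not without small replicate 3. The lowest median of the list when 1 pool was left out was 0.03, without spontaneous replicate 3, and its highest 0.86, without small replicate 3.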

How the data were processed

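RNA from pools of 4 oocytes was amplified with the Ovation RNA-Seq System V2 and sequenced as single-end reads by the authors, who trimmed reads with fqtrim, aligned them to UMD3.1 with Hisat2 and counted them on Ensembl genes with featureCounts. The deposited unit is CPM, which the authors obtained by dividing the counts of each pool by its reads on genes. Amplification of little RNA can add spread between pools, and CPM are relative to the other transcripts of a pool. Whole reads were recovered from 100% of the CPM values (tolerance 0.02 reads), and pool columns were matched to samples by name with 0 left unmatched. Symbols came from the deposited table. No genome or sequence of the authors' build was used, so no coordinates are given. One item is not reported here.

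Transcripts that reached 5 CPM in 4 or more of the oocyte libraries were compared as log2(CPM + 1) with limma's moderated test (mean-variance trend, two-sided, only small and spontaneous pools, no covariates). The deposited values are CPM, so edgeR and DESeq2, the tools that the study used, served as alternatives on the recovered reads. A transcript was called at a nominal p of 0.01 or less with all pools and without small replicate 3. Benjamini-Hochberg adjusted p-values cover all 10076 transcripts. For single genes the means in CPM were also compared by an exact permutation test over all 210 assignments of pools, two-sided. A log2 fold change is spontaneous minus small, and on the log2(CPM + 1) scale it understates the change of low transcripts. Named transcripts were the 10 with the smallest p in each direction among those called, every called member of a gene list and the genes that the study names for this comparison. Members and lists were chosen with earlier results of these data known. Lists were described by counts and medians only. Labels do not say that pools shared no cow or batch, so p-values measure only the spread between these pools. All pairs of pools within a group differed by more than their counting error (chi-square of at least 76.7 for each degree of freedom), so each pool was 1 replicate.

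The tests were tried before use on simulated data, in which changes were planted only in transcripts of higher level and low spread. That trial does not cover transcripts that are low or vary widely between pools. Alternatives were another pseudocount (0.1), no filter, a filter at 1 CPM, median-of-ratios and TMM scaling, CPM without mitochondrially encoded genes, all 3 classifications in 1 fit, the replicate number as a block, thinned reads, the count tests and each pool left out in turn. Versions were R 4.3.3, limma 3.58.1, edgeR 4.0.16, DESeq2 1.42.0, Python 3.11.15, pandas 2.3.3 and matplotlib 3.10.9.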

Additional observations from a re-analysis of the deposited data

Results flagged for a closer look

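In 70 tests for a pool far from the others of its group (34 named transcripts and the mitochondrial share, in small and in spontaneous pools), 7 values stood apart, where 3.5 would be expected by chance. All 7 were the highest value of their group and belonged to small replicate 3. This pool had 8040 CPM of COX1, 7228 CPM of ND1, 9986 CPM of COX3, 5674 CPM of ND4 and 3055 CPM of ATP6, and 5.0% of its reads on the 13 mitochondrially encoded genes. The ribosomal transcript RPL18, at 491 CPM, was also far above the other small pools. The 7 values are not independent, since 6 of them measure mitochondrially encoded genes of the same library. This pool had been singled out beforehand for its mitochondrial share, so these 6 repeat that choice. The count of 7 against 3.5 is therefore not a separate result. No spontaneous pool stood apart in these tests.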

How the results depend on the processing

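No named transcript reversed its direction in any alternative, and 9 of the 34 (ATP6V0D1, CBX6, COX1, NSUN5, SERPINB5, SH3RF1, SIRT6, TRIR and TTBK2) kept their call in all 21. Over the named transcripts, 614 alternative values kept their side of the threshold, 97 lost it and 2 gained it. DESeq2 called 122 transcripts (71 higher in small pools), and edgeR's quasi-likelihood test 29 higher in spontaneous pools of 56, while 28 higher in spontaneous pools were called by both. TMM scaling gave 1 transcript at an adjusted p under 0.05. Median-of-ratios scaling called 73, 43 of them higher in spontaneous pools. Leaving out 1 pool gave 49 (without spontaneous replicate 3) to 133 (without small replicate 3) called transcripts, 27 to 101 higher in spontaneous and 19 to 32 higher in small pools, and 0 to 1 at an adjusted p under 0.05. The difference in mitochondrial share ran from -1.34 to -0.59 percentage points. Its exact permutation p was under 0.05 without any 1 small pool and from 0.167 to 0.238 without any 1 spontaneous pool, and on the log2 scale the difference was -0.94. The cause of these changes was not tested. Mitochondrial ribosomal and transfer RNA genes were not analysed here, so the share with them was not run.

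With the replicate number as a block (replicate block), 41 transcripts were called, 29 higher in spontaneous and 12 higher in small pools, and 4 (COX1, cytb, ND1 and ND5) had an adjusted p under 0.05. Deviations of same-numbered pools had correlations of -0.03, -0.04, 0.14 and 0.04 for replicates 1 to 4. For pools of different numbers the correlations ran from -0.10 to 0.06. The value of replicate 3 was thus the largest, and whether these 2 pools shared a source was not tested. The labels do not say that the numbers pair the pools. With 4 spontaneous pools a single gene cannot reach an exact permutation p below 0.00476, and 3 reads were worth up to 0.391 CPM, which limits transcripts of low level.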

Other observations

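Several called transcripts lay outside the lists above and were picked after their values were seen. MX1, an interferon-induced GTPase, was at 0.0739 (lowest), 0.488 (median) and 42.9 CPM (highest) in small pools, and at 10.8, 56.9, 98 and 6.97 CPM in spontaneous pools 1 to 4. Small replicate 5 lay within the spontaneous range. OAS1Y, of the oligoadenylate synthetase family, was at 0 (lowest), 0.446 (median) and 5.14 CPM (highest) in small pools, and at 3.45, 6.27, 23.3 and 7.53 CPM in spontaneous pools 1 to 4, and IFI6, another interferon-induced gene, at 0.148 (lowest), 8.03 (median) and 30.9 CPM (highest) in small pools, and at 64.9, 27.2, 170.4 and 4.52 CPM in spontaneous pools 1 to 4. A list of interferon-induced genes written after these values had 24 of 42 members retained, 15 of them higher in spontaneous pools, a median log2 fold change of 0.56 and 3 called members, which are those that led to the list. OAS1Y passed the filter on low levels only with the spontaneous pools, in which it was high. The summed level of all 42 members of the list was 623 to 901 CPM in small and 681 to 1409.6 CPM in spontaneous pools, so the groups overlapped. Without spontaneous replicate 3 the median log2 fold change of the list was 0.09. STAT2, a signal transducer of interferon, averaged 83.3 ± 14.5 CPM (SD) in small and 55 ± 11.5 CPM in spontaneous pools and was not called.

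Other called transcripts higher in spontaneous pools were MDM2, the ubiquitin ligase of p53, and SRGN, a proteoglycan. MDM2 was at 76.4 (lowest), 126 (median) and 174 CPM (highest) in small pools, and at 191, 238, 247 and 172 CPM in spontaneous pools 1 to 4, with small replicate 4 above the lowest spontaneous pool. SRGN was at 4.59 (lowest), 55.1 (median) and 303 CPM (highest) in small pools, and at 57, 98.9, 506 and 704 CPM in spontaneous pools 1 to 4, a wide spread in both groups, and in CC pools its mean was 439 CPM for small and 2026 CPM for spontaneous follicles. Among called transcripts higher in small pools, HOXB3, a homeobox gene, was at 8.26 (lowest), 18 (median) and 22.7 CPM (highest) in small pools, and at 1.79, 6.41, 2.88 and 3.79 CPM in spontaneous pools 1 to 4, without overlap. KIF15, a spindle kinesin, was at 421 (lowest), 481 (median) and 649 CPM (highest) in small pools, and at 374, 389, 289 and 373 CPM in spontaneous pools 1 to 4, also without overlap. Its log2 fold change was -0.47, the smallest in size among the called transcripts.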
